A study of Mus musculus with 65 samples.

Results

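The kinesin superfamily was described gene by gene in single cells of the embryonic mouse cortex. Members were all rows whose symbol begins with Kif followed by a digit or the letter c. They number 34 of the 11971 genes in the table, 32 with the capital C of the written rule, and Kifc1 and Kifc5b were added by ignoring letter case. Of the 34, 13 belong to a list of mitotic kinesins, 12 to a list of cargo-carrying transport kinesins, and 9 to neither. Kif2b, Kif17, Kifc2 and Kifc3 were on the lists but are not analysed here.

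The data are 65 cells of 1 group: C57BL/6J cortex at E13.5, with no transgene, treatment or second genotype. Cortical hemispheres of all embryos were pooled after the ganglionic eminences had been removed, and cells that excluded propidium iodide, a dye of dead cells, were sorted one by one. The cells are labelled as neural progenitors, and full-length cDNA was made from each with a SMARTer kit, without molecular identifiers. Because no animal is named, the cells cannot serve as replicates. Neither p-values nor standard errors are given, spreads are between cells, and intervals and limits for shares cover counting error only.

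Kinesins are motors that use ATP to move along microtubules or to take microtubule ends apart. In dividing progenitors of the ventricular zone, mitotic kinesins build the bipolar spindle, move and align chromosomes and organise the midzone on which cytokinesis depends. In young neurons, transport kinesins carry vesicles, organelles and signalling complexes along axons and dendrites, and further members tune microtubule growth.

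Cells were classed by marker genes that are no members, at 10 CPM or more (a gene's reads scaled to a common library size, with CPM standing for counts per 1000000 reads of the cell), the level at which any gene was called expressed. Ccnb1, which encodes the cyclin of mitotic entry, reached it in 26 cells. Sox2, a transcription factor of progenitors, reached it in 22 cells, of which 16 also had Ccnb1. Neurod6, a transcription factor of excitatory cortical neurons, reached it in 16 cells, of which 4 also had Ccnb1, and no cell had both Sox2 and Neurod6. Dlx5, a gene of interneurons, was the only 1 of the 4 markers in 7 cells, and 14 cells had none of them. The cell label did not hold for all cells, because those with Neurod6 but no Ccnb1 were high in other neuron markers. The median sum of 5 such markers (Tbr1, Neurod2, Dcx, Tubb3 and Stmn2) was 8145 CPM in them, against 361 CPM in Sox2 cells. That sum does not single out excitatory neurons. With Neurod6 added, it was 3768 to 11711 CPM in the cells with Dlx5 alone. There Neurod6, Tbr1 and Neurod2 stayed under 10 CPM. Between 5 and 20 CPM, close to the dividing line, lay 2 cells for Ccnb1, 2 for Sox2 and 0 for Neurod6.

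Totals ranged from 85338 to 32130629 reads per cell, with 3 cells under 1000000. The median total was 20210965 reads in the 22 Ccnb1 cells without Neurod6, 11726525 in the 12 Neurod6 neurons without Ccnb1, 16551627 in the 22 Sox2 cells and 8529981 in the 6 Sox2 cells without Ccnb1. Median numbers of genes with a read were 6402, 5316, 6402 and 6100 in the same order. At 10 CPM or more they were 3191.5, 2809, 2917.5 and 2434.5, and 3311.5 in the 16 Sox2 cells with Ccnb1. Cell titles part the cells into sets of 31, 13 and 21 that the labels do not explain, and 4 of the 6 Sox2 cells without Ccnb1, but only 2 of the 12 Neurod6 neurons, belong to set 2. The part of depth and set in the results was not tested beyond the values given below.

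Promoter sequence was compared because mitotic kinesins were high together in a few cells, as described further on. The cell cycle genes homology region (CHR), read here as the letters TTTGAA on either strand, is a promoter element of genes transcribed in G2 and mitosis, and the CCAAT box often lies upstream of it. RefSeq windows from 250 bases before to 50 after the transcription start (build GRCm38.p6) matched 12 of 13 mitotic, 9 of 12 transport and 7 of 9 other members. Entries for Kif20a, Kif13b, Kif5a, Kif5b, Kif21b and Kif4-ps are missing, and members with alternative starts have more than 1 window. The CHR letters occurred in 11 of 12 mitotic windows, all but that of Kif18a, in 1 of 11 transport windows, an alternative start of Kif1a, and in 1 of 9 other windows, that of Kif26b. They occurred in 17.9% of all 32851 windows of the table and in 12.2% of the 11355 windows of genes measured here. The letters CCAAT on either strand were in 8 of 12 mitotic, 4 of 11 transport and 2 of 9 other windows, against 38.1% for measured genes. Both motifs, which do not overlap, were in 8 of 12 mitotic and 0 of 11 transport windows, against 5.01% for measured genes. In 9 of the mitotic windows the CHR letters began between 25 bases before and 30 bases after the start.

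The stretches around the CHR letters of 6 mitotic kinesins, and the last 60 bases before the start of 2 transport kinesins for contrast, are printed 5′ to 3′ on the strand of the gene. Capitals mark TTTGAA or its reverse TTCAAA, and CCAAT or its reverse ATTGG. A match of letters is a description and not evidence of binding.
Kif11 (chr19:37376318-37376378, plus strand, upstream of the start): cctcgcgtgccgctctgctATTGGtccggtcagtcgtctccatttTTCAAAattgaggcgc
Kif22 (chr7:127042422-127042482, minus strand, upstream of the start): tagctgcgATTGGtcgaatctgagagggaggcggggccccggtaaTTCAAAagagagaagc
Kif15 (chr9:122951017-122951077, plus strand, upstream of the start): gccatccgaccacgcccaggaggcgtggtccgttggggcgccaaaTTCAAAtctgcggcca
Kif23 (chr9:61946785-61946842, minus strand, reaching 15 bases into the first exon): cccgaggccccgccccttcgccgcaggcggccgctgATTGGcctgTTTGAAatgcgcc
Kif20b (chr19:34922320-34922372, plus strand, reaching 15 bases into the first exon): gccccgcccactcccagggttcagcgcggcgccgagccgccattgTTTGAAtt
Kif2c (chr4:117178860-117178920, minus strand, upstream of the start): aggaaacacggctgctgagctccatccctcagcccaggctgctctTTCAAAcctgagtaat
Kif3a (chr11:53567309-53567368, plus strand, upstream of the start): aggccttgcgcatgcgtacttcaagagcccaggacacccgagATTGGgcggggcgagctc
Kif5c (chr2:49619226-49619285, plus strand, upstream of the start): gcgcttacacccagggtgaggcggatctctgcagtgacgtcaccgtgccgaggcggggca

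Mitotic and transport kinesins differed in how many cells held them. At 10 CPM, 17 of the 34 members were expressed in 10 or more cells (6 mitotic, 7 transport and 4 other), and 12 members in 5 or fewer. Kif1b was expressed in 48 of 65 cells, Kif5b in 44, Kif2a in 43 and Kif3a in 38. The mitotic kinesin found in most cells, Kif15, was expressed in 19, followed by Kif22 in 16 and Kif11 in 15. Per kilobase of exon, the scale on which different genes can be compared, Kif3a had the highest mean level over all cells at 46.9 CPM per kb, ahead of Kif2a at 31.3, Kif5c at 24.3, Kif21a at 22.2 and Kif5b at 20.8. Kif22 led the mitotic list at 13.2 CPM per kb.

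**Figure D1:**
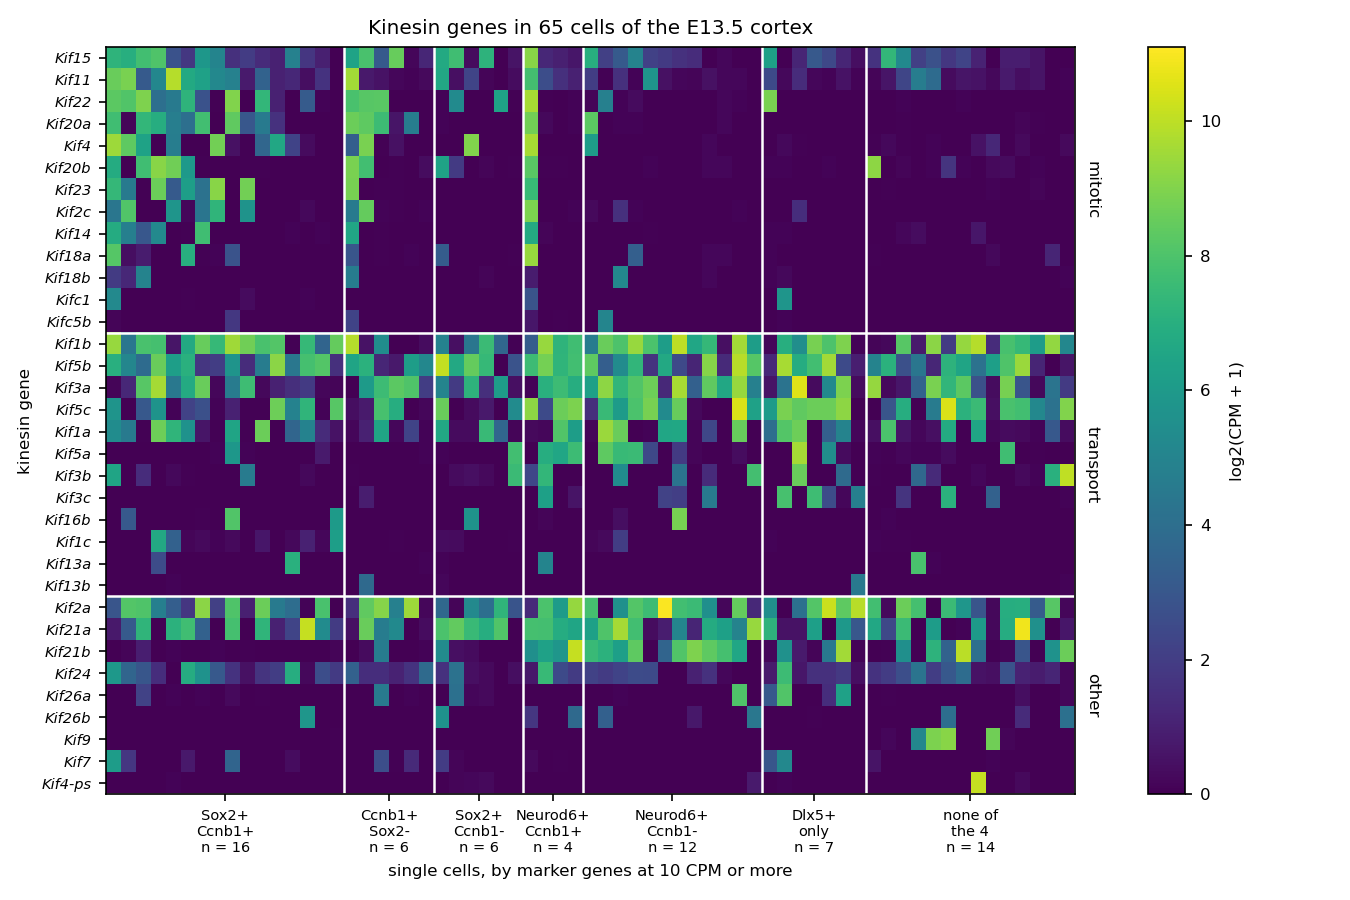
Level of each of the 34 kinesin genes (rows, by list) in each of the 65 cells (columns, by marker class and ordered within a class by the mean of the mitotic kinesins), as log2(CPM + 1) on a linear colour scale. Mitotic kinesins are high together in a few columns at the left and in 1 Neurod6 cell with Ccnb1, while Kif1b and Kif5b are spread over all classes.

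The first comparison set the 22 Ccnb1 cells against the 12 Neurod6 neurons, each without the marker of the other class. Mitotic kinesins were higher in the Ccnb1 cells: 9 of 13 passed a difference of 1 in mean log2(CPM + 1), called past the fold here, and 0 passed it in the other direction, where 23.7% of all 11971 genes were higher and 11.3% lower by that measure. The median difference of the list was 2.07, against 0.25 over all genes. Differences on this scale understate the change of genes with low values. With class medians in place of means 4 mitotic members passed and the list median was 0.0542, since most mitotic kinesins were under 10 CPM in more than 11 of the 22 cells.

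Among the chromosome motors, Kif22 had the largest difference of the list, 3.57. Kif22, the chromokinesin Kid that pushes chromosome arms away from spindle poles, had a lowest, median and highest level of 0, 11.96 and 508 CPM in Ccnb1 cells, and of 0, 0.036 and 27.6 CPM in the neurons. It was expressed in 11 of 22 against 1 of 12 cells, with mean log2(CPM + 1) of 4.05 ± 3.75 (SD, n = 22) against 0.48 ± 1.38 (n = 12). The ranges overlapped at the low end only, with 11 of the 22 Ccnb1 cells under 10 CPM. Kif4, a chromokinesin that also shapes the spindle midzone, was expressed in 8 of 22 against 1 of 12 cells, with a difference of 2.37. The pseudogene Kif4-ps was expressed in 1 cell, which had none of the 4 markers, at 1122 CPM, and reads of Kif4 and Kif4-ps may have been split uncertainly.

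Motors of the midzone and of cytokinesis were held by up to 12 of the 22 Ccnb1 cells. Kif20a, which brings the chromosomal passenger complex to the midzone, had a lowest, median and highest level of 0, 18.8 and 389.5 CPM in Ccnb1 cells, and was expressed in 12 of 22 of them against 1 of 12 neurons (difference 3.18). That neuron had 312 CPM, and the median of the neurons was 0. Kif23, the motor of the centralspindlin complex needed for cytokinesis, was at 0 reads in all 12 neurons and expressed in 8 of 22 Ccnb1 cells, at up to 555 CPM (difference 2.77). A count of 0 of 12 cells allows a share of up to 25%, with 3 cells taken as the limit of a count of 0. Kif20b, which acts in abscission and is needed for normal growth of the mouse cortex, was expressed in 7 of 22 against 0 of 12 cells (difference 2.48), and Kif14, another motor of cytokinesis, differed by 1.56.

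Motors of the spindle itself were also higher. Kif11, which slides antiparallel microtubules apart to make the spindle bipolar, had a lowest, median and highest level of 0, 5.03 and 928 CPM in Ccnb1 cells and of 0, 0.15 and 54.2 CPM in neurons. It was expressed in 10 of 22 against 1 of 12 cells (difference 2.64). Kif2c, which removes tubulin at centromeres to correct attachments, was expressed in 8 of 22 against 0 of 12 cells (difference 2.07). Kif15, which works beside Kif11 on the spindle, was expressed in 10 of 22 against 2 of 12 cells (difference 1.89), and in 2 of the 14 cells with none of the 4 markers. The remaining members stayed between the folds: Kif18a, Kif18b, Kifc1 and Kifc5b had differences of 0.71, 0.13, 0.26 and -0.23, and each was expressed in 3 or fewer cells. Kifc1 and Kifc5b are near-identical copies whose reads the counting could have split.

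**Figure D2:**
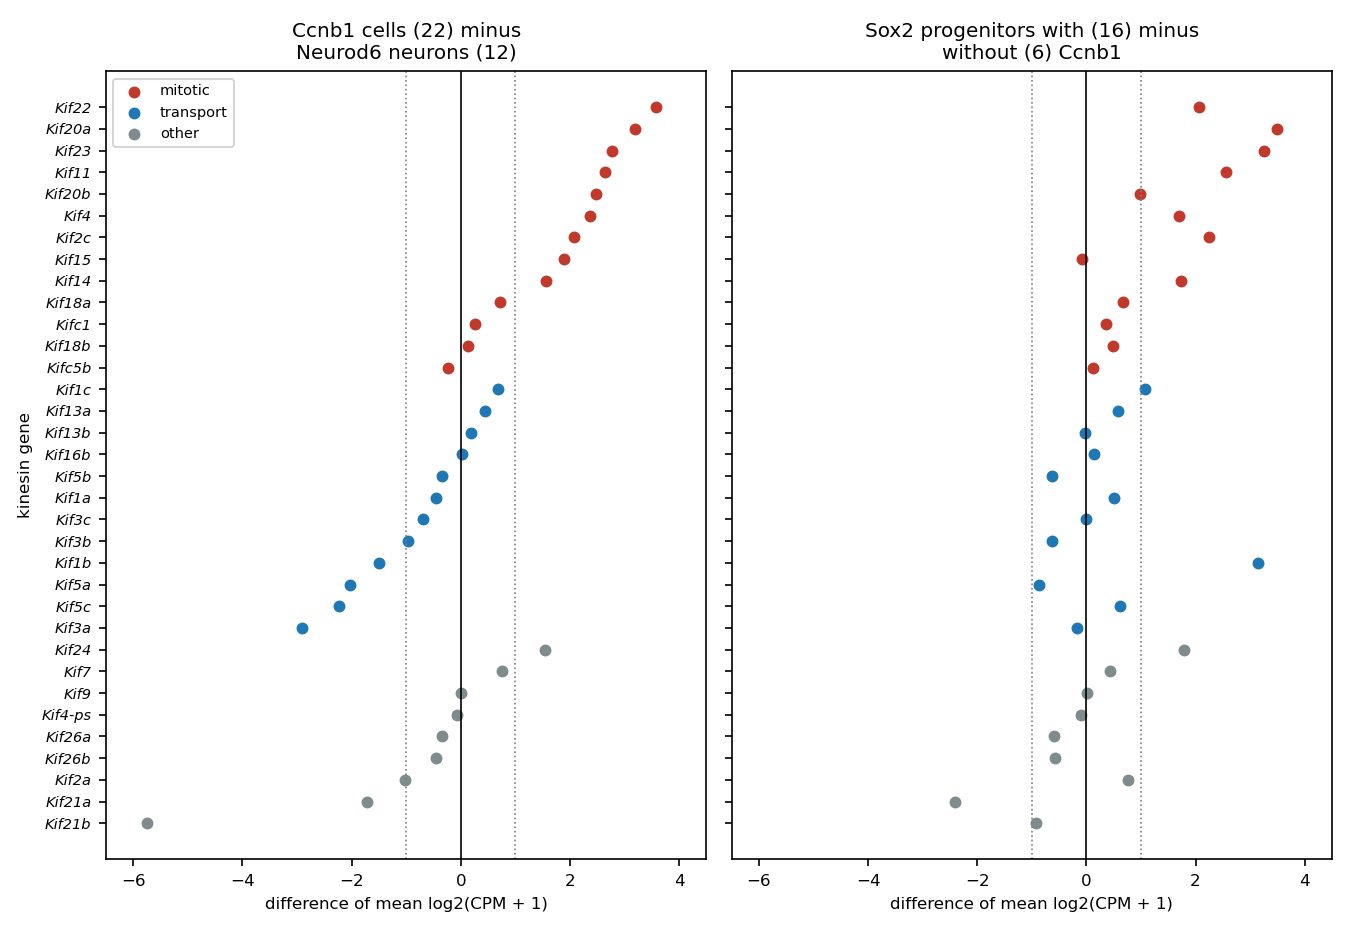
Difference of mean log2(CPM + 1) for each kinesin gene, between 22 Ccnb1 cells and 12 Neurod6 neurons (left) and between 16 Sox2 progenitors with and 6 without Ccnb1 (right). Dotted lines mark a difference of 1 in either direction. On the left 9 mitotic members lie right of the upper line and 4 transport members left of the lower one; on the right 7 mitotic members and Kif1b, Kif1c and Kif24 lie right of it.

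Within progenitors, the 16 Sox2 cells with Ccnb1 were compared with the 6 without, and only Sox2 was held the same. Other lineage markers differed. The sum of the 5 neuron markers with Neurod6 added had a median of 362 CPM (highest 3319) with Ccnb1 and 1055 CPM (highest 5999) without. Its part in the differences was not tested. Of the mitotic kinesins, 7 of 13 were higher past the fold with Ccnb1 and 0 lower, where 28.1% of all genes were higher and 10.6% lower. The list median was 1.69 (0.0221 with class medians in place of means) and the median of all genes 0.34. Kif20a was expressed in 8 of 16 against 0 of 6 cells (difference 3.49), Kif23 in 7 of 16 against 0 of 6 (3.25), and Kif2c in 6 of 16 against 0 of 6 (2.25). A count of 0 of 6 cells allows a share of up to 50% by the same limit of 3 cells, so absence was not shown. Kif11 was expressed in 9 of 16 against 1 of 6 cells (difference 2.55) and Kif22 in 8 of 16 against 2 of 6 (2.07). Kif15 did not follow them: it was expressed in 7 of 16 against 3 of 6 cells, with mean log2(CPM + 1) of 3.68 ± 2.77 (SD, n = 16) against 3.76 ± 3.80 (n = 6). Kif20b also fell short of the fold, with a difference of 0.99. Within title set 2, the only set with more than 1 cell on each side (2 against 4 cells), 5 mitotic kinesins were higher past the fold and 1, Kif15 at -1.55, lower, beside 30.8% and 19.2% of all genes, and the list median was 0.25. There Kif22 (0.95), Kif4 (0.25) and Kif14 (0) were under the fold. The pair of classes differed in depth as given above, and with fewer cells on one side a single cell weighed more.

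The first 2 comparisons share cells, since the 16 Sox2 cells with Ccnb1 are among the 22 Ccnb1 cells of the first. The other 2 comparisons share cells with these as well. The values of all comparisons are therefore set side by side, and none is counted as further support for another. Between all 22 Sox2 cells and all 16 Neurod6 cells, 7 of 13 mitotic kinesins were higher past the fold and 0 lower, where 16.3% of all genes were higher and 12.6% lower, and the list median was 1.43. With a pseudocount of 10, or with class medians, 2 of the 7 passed. Kif22 had the largest mitotic difference, 2.51, and Kif2c, at 0.94, and Kif14, at 0.83, were under the fold. Between the 6 Sox2 cells and the 12 Neurod6 cells without Ccnb1, 3 of 13 mitotic kinesins were higher past the fold (Kif15 by 1.73, Kif22 by 1.50 and Kif20b by 1.38) and 0 lower, where 17.5% of all genes were higher and 20.9% lower. The list median was 0. The calls of Kif15 and Kif20b were each lost without 1 particular cell (0.94 and 0.38), and that of Kif22 without either of 2 (lowest value 0.62). The mean of the 13 mitotic kinesins in log2(CPM + 1) was 0.84 ± 0.59 (SD, n = 6) in these Sox2 cells and 0.47 ± 0.55 (n = 12) in the neurons.

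Mitotic kinesins were carried by the same few cells. A total of 10 cells expressed 6 or more of the 13, with between 6 and 11 each, and all 10 had Ccnb1. In the 39 cells without Ccnb1 the highest number was 3, and 22 of them expressed none. Among Ccnb1 cells without Neurod6, 9 of 22 had 6 or more, a share of 40.9% (exact Clopper-Pearson 95% interval 20.7% to 63.6%), among Sox2 cells 7 of 22 (31.8%, 13.9% to 54.9%), and among Neurod6 neurons without Ccnb1 0 of 12. Having Ccnb1 did not fix the state of the list, since 7 of the 26 Ccnb1 cells expressed no mitotic kinesin and 6 cells lay within 1 gene of the dividing number. The 10 cells came from all title sets, with 7 of 31, 1 of 13 and 2 of 21. Kif23, Kif2c, Kif14 and Kif18a were expressed in 9, 9, 6 and 3 cells, every one of them with Ccnb1. Kif15 was expressed in 11 cells with and 8 without it, where 40% of all cells had Ccnb1.

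**Figure D3:**
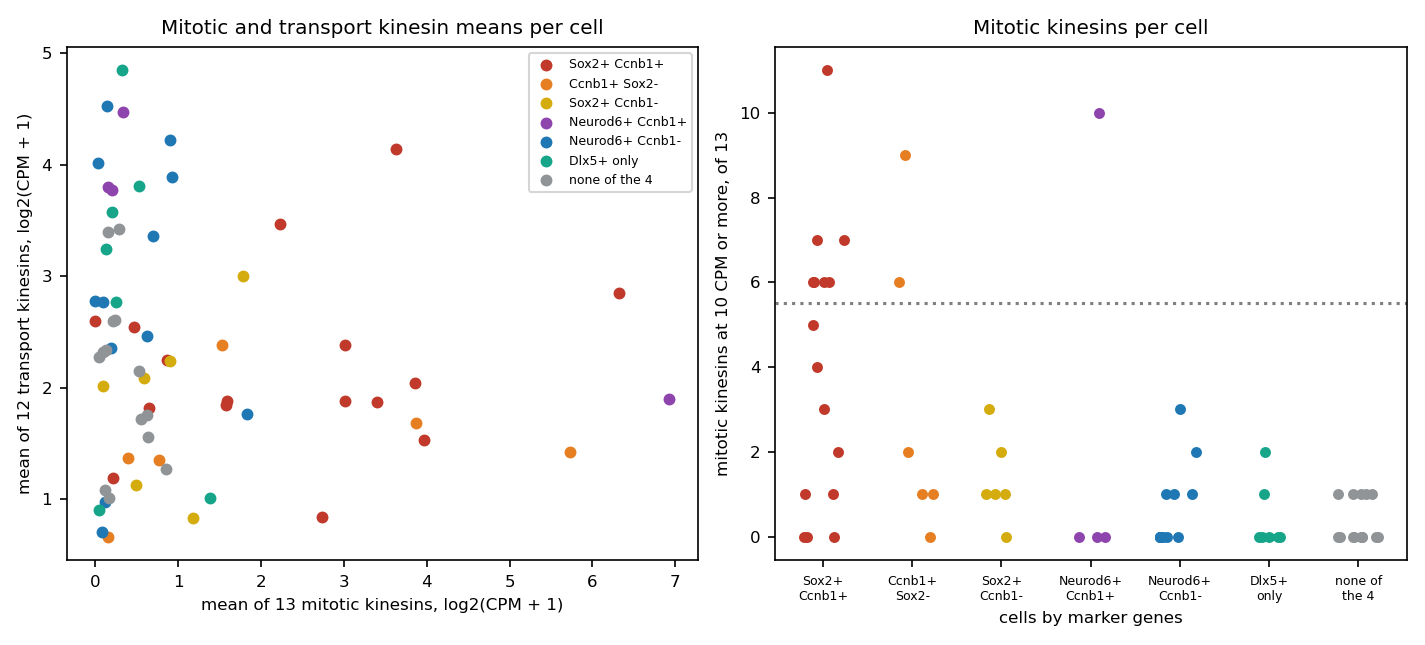
Left, mean log2(CPM + 1) of the 12 transport against that of the 13 mitotic kinesins, 1 point per cell, coloured by marker class. Right, number of mitotic kinesins at 10 CPM or more in each cell by class, with a dotted line below 6; the 10 points above it are 7 Sox2 cells with Ccnb1, 2 Ccnb1 cells without Sox2 and 1 Neurod6 cell with Ccnb1.

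The 4 cells with both Neurod6 and Ccnb1 were not alike. A single cell, of set 1, expressed 10 mitotic kinesins, among them Kif4 at 810 CPM, Kif22 at 789.7 CPM, Kif18a at 671 CPM, Kif15 at 566 CPM and Kif2c at 474 CPM. It had 1660 CPM of Ccnb1, 364 CPM of Neurod6, 44.7 CPM of Kif21b and 0.071 CPM of Kif3a, and its transport kinesins at 10 CPM were Kif5c at 592 CPM and Kif5b at 194 CPM. The other 3 expressed 0 mitotic and 6, 7 and 6 transport kinesins, with Neurod6 at 2141, 2471 and 3099 CPM and Ccnb1 at 144, 236 and 192 CPM. The first cell's total of 14032041 reads was below the 14609426 to 21292024 of the other 3. Whether a well held more than 1 cell was not tested.

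Some transport kinesins showed the opposite order. Between the 22 Ccnb1 cells and the 12 neurons, 0 of 12 transport members were higher past the fold and 4 lower, against the 23.7% and 11.3% of all genes, and the list median was -0.57. Those 4 were Kif3a, Kif5c, Kif5a and Kif1b. The number lower was 2 with class medians and 7 without title set 1. Under other settings the list median lay between -1.09 and 0. Between Sox2 and Neurod6 cells the count was 0 higher and 4 lower, beside 16.3% and 12.6% of all genes (list median -0.67). Between the classes without Ccnb1 it was 0 and 4, beside 17.5% and 20.9% (list median -0.28). In progenitors with against without Ccnb1, 2 transport members were higher past the fold, Kif1b and Kif1c, and 0 lower, beside the 28.1% and 10.6% of all genes (list median 0.07).

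Kif3a encodes a motor subunit of kinesin-2, which carries cargo in axons and builds the primary cilium. Its lowest, median and highest level was 0, 11.8 and 786 CPM in Ccnb1 cells and 1.46, 215 and 809 CPM in neurons. It was expressed in 11 of 22 against 10 of 12 cells, and mean log2(CPM + 1) was 4.02 ± 3.55 (SD, n = 22) against 6.93 ± 2.60 (n = 12). The ranges overlapped almost whole, and the classes parted in their medians. The difference was -2.91 here, -2.98 for Sox2 against Neurod6 cells and -3.24 between the classes without Ccnb1, while progenitors with and without Ccnb1 differed by -0.17. Its partner subunits were held by fewer cells: Kif3b differed by -0.97 between Ccnb1 cells and neurons, with 12 expressing cells in all, and Kif3c by -0.70, with 7.

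The kinesin-1 heavy chains, the motors of much fast axonal transport, did not go together. Kif5c, which is enriched in neurons, had a lowest, median and highest level of 0, 2.31 and 403 CPM in Ccnb1 cells and of 0, 73.6 and 1429 CPM in neurons, and was expressed in 8 of 22 against 8 of 12 cells (difference -2.23). Kif5a, also a neuronal form, was expressed in 1 of 22 against 3 of 12 cells (difference -2.03), and in 3 of the 4 cells with both Neurod6 and Ccnb1. Its call between the classes without Ccnb1 (-1.05) ended without any 1 of 8 of the 18 cells, with values of -2.33 to -0.50. Kif5b, the form found in most tissues, was expressed in 16 of 22 against 7 of 12 cells, and its median was 43.2 CPM in Ccnb1 cells and 71.5 CPM in neurons (difference -0.33). It was picked for the text after its values were seen, as the member of the trio that did not pass the fold in any of the 4 comparisons. Of the 7 cells with Dlx5 alone, 6 expressed Kif5c, at a median of 390.1 CPM, so its higher level was not limited to the Neurod6 class.

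Kif1b, a carrier of mitochondria and synaptic vesicle precursors, was lower in the Sox2 cells without Ccnb1 than in Sox2 cells with it or in neurons. Its lowest, median and highest level was 0.049, 15.6 and 190.5 CPM in those 6 cells, 0.046, 231 and 729.5 CPM in the 16 Sox2 cells with Ccnb1, and 0.38, 209 and 1015 CPM in the 12 neurons. The difference was 3.15 for Sox2 cells with against without Ccnb1 and -3.57 for those without Ccnb1 against neurons. Within title set 2, which holds 4 of the 6 cells, the first was 0.00 (2 against 4 cells) and the second -2.77 (4 against 2 cells), so the first did not hold within that set, and sets 1 and 3 hold 1 cell each on one side. The 6 Ccnb1 cells without Sox2 or Neurod6 had a median of 0.36 CPM and 2 expressing cells, so a higher level of Kif1b did not accompany Ccnb1 in every class. Between Ccnb1 cells and neurons Kif1b differed by -1.50, and between Sox2 and Neurod6 cells by -1.23, a call that ended without any 1 of 4 of the 38 cells. Kif1c passed the fold in progenitors with Ccnb1, by 1.08, on 2 expressing cells. Kif1a, a carrier of synaptic vesicle precursors in neurons, differed by no more than 0.51 in size in any comparison over all sets. It was expressed in 10 of 22 Ccnb1 cells and 5 of 12 neurons. Within title sets 1, 2 and 3 these classes differed by -1.15, 4.90 and -1.79, so its small difference did not hold there. Set 2 had 2 cells on each side. Kif13a, Kif13b and Kif16b were each expressed in 4 or fewer cells and passed the fold in none.

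**Figure D4:**
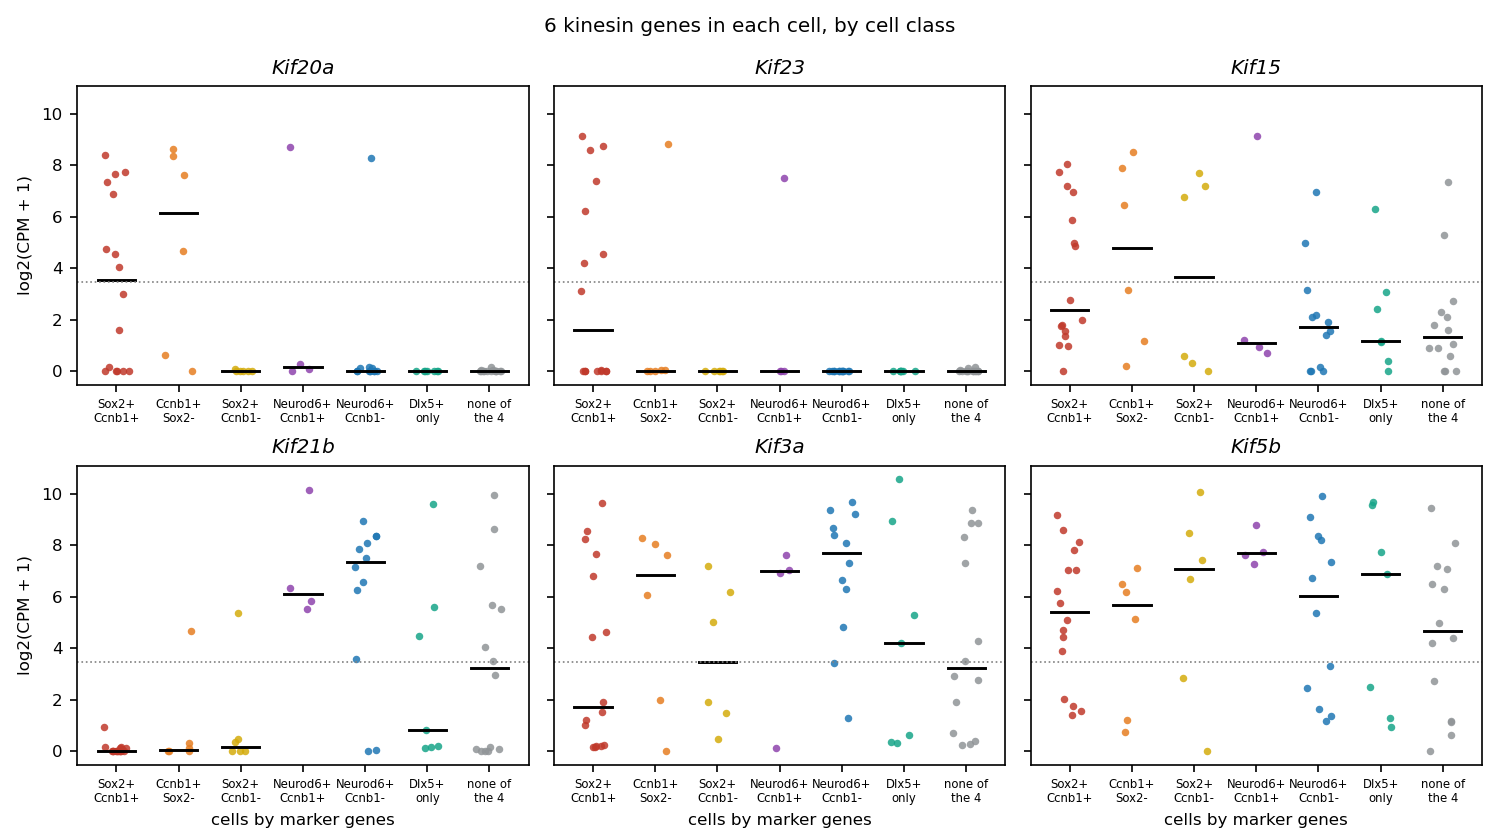
Level of 6 kinesin genes in each cell as log2(CPM + 1), by marker class. Points are cells, horizontal bars class medians and the dotted line 10 CPM. Of the cells above the line, 13 of 14 for Kif20a and 9 of 9 for Kif23 have Ccnb1; points above the line are seen for Kif15 in every class, Kif21b in 14 of 16 Neurod6 cells but 1 of 22 Sox2 cells, and Kif5b in every class.

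Among the 9 other kinesins, Kif21b had the largest class difference of all members. Kif21b is a motor of neurons that pauses microtubule growth. Its lowest, median and highest level was 0, 0 and 24.02 CPM in Ccnb1 cells and 0, 160 and 488 CPM in neurons. It was expressed in 1 of 22 against 10 of 12 cells, and mean log2(CPM + 1) was 0.30 ± 0.99 (SD, n = 22) against 6.06 ± 3.14 (n = 12). The difference was -5.76, and -5.93 for Sox2 against Neurod6 cells, with 1 of 22 against 14 of 16 cells expressing it. All 4 cells with both Neurod6 and Ccnb1 expressed it, as did 3 of 7 cells with Dlx5 alone and 7 of 14 with none of the markers. Its difference was negative in each title set, at -6.64, -4.12 and -3.54.

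Kif21a, its close relative, was held by many progenitors. It was expressed in 12 of 22 Sox2 and 13 of 16 Neurod6 cells (difference -1.25), and in 5 of 6 Sox2 cells without Ccnb1 against 7 of 16 with it (difference -2.41, but 0.89 within title set 2, with 2 against 4 cells, so the direction did not hold there). Kif2a, a microtubule depolymerase that also limits axon branching, was expressed in 13 of 22 Ccnb1 cells and 9 of 12 neurons. Its difference of -1.02 sat at the fold, and leaving out any 1 of 17 of the 34 cells in turn ended the call. Between Sox2 and Neurod6 cells Kif2a differed by -1.55, and between the classes without Ccnb1 by -2.05. No single cell ended either of these calls, but the latter difference was 0.75 within title set 2 (4 against 2 cells). Kif24, a depolymerase of the centriole that restrains cilium formation, was expressed in 6 of 22 Ccnb1 cells and 0 of 12 neurons (difference 1.55), and passed the fold also in progenitors with Ccnb1 (1.78). It did not hold across title sets: the first difference was 2.26, -0.67 and 0.33 in sets 1, 2 and 3, and the second was -1.13 within set 2. Kif7, a regulator of Hedgehog signalling at the cilium, differed by 0.76, and Kif9, Kif26a, Kif26b and Kif4-ps stayed under the fold in all 4 comparisons, as Kif7 did. All of these were expressed in 6 or fewer cells.

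Correlations across the 65 cells describe cells that come from 1 pool of embryos and differ in depth. The 6 mitotic kinesins expressed in 10 or more cells were positively correlated in 15 of 15 pairs, with a median Pearson r of 0.48 and a range of 0.40 to 0.69. The 7 transport kinesins expressed in as many cells were positive in 19 of 21 pairs, with a median of 0.18. Pairs of 1 mitotic and 1 transport kinesin had a median of -0.07 with 14 of 42 positive. Over all genes expressed in 10 or more cells, 10808331 of 17973010 pairs were positive and the median was 0.04. The strongest of the mitotic pairs was Kif20a with Kif22 at 0.69. The mean of the mitotic list and the mean of the transport list were almost unrelated (r = -0.12, Spearman rho = -0.11), with r of -0.23, -0.34 and 0.10 in the 3 title sets and -0.16 once the 2 cells with the most extreme mitotic mean were left out. The mitotic mean had r = 0.28 with the number of genes detected in a cell, and the transport mean 0.07.

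Of 8352 genes outside the family with a mean of 10 CPM or more, the 5 ranked most like the mitotic mean by Spearman rho across the cells were Top2a (0.70), Hmgb2 (0.66), Cks2 (0.64), Cdca8 (0.62) and Mki67 (0.62). The 5 most like the transport mean were Sbk1 (0.59), Sestd1 (0.59), Usp22 (0.52), Tuba1a (0.52) and Palm (0.51). These genes were chosen by their rho, which is given as a description only.

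Genes that work with these motors were described from lists in the same comparison of 22 Ccnb1 cells with 12 neurons. Of 15 mitosis partners, 14 were higher past the fold and 0 lower, beside the 23.7% and 11.3% of all genes, with a list median of 2.84. Cdca8 and Birc5, subunits of the chromosomal passenger complex that Kif20a relocates, were expressed in 17 of 22 against 2 of 12 and in 18 of 22 against 3 of 12 cells (differences 5.15 and 4.28). Nusap1, a microtubule bundling protein of the spindle, differed by 3.95, and Ect2, which binds centralspindlin and activates RhoA for cytokinesis, by 3.89. Not every partner was scarce in neurons: Racgap1 (difference 1.68) was expressed in 22 of 22 Ccnb1 cells and in 10 of 12 neurons. Between the classes without Ccnb1, 5 of the 15 were higher past the fold and 1, Prc1 at -1.24, lower. Of all genes, 17.5% and 20.9% were higher and lower there. Cdca8 and Birc5 were expressed in more of the Ccnb1 cells than any mitotic kinesin, whose highest count was 12 of 22, and Cdca8 differed by -0.41 between Sox2 cells with and without Ccnb1.

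Of 18 measured cargo adaptors and regulators, 1 was higher past the fold and 7 lower, beside the same 23.7% and 11.3%, with a list median of -0.80. Mapk8ip2, a scaffold that links kinesin-1 to kinases and cargo, was expressed in 2 of 22 Ccnb1 cells and 6 of 12 neurons (difference -3.00). Arl8a, a GTPase that couples lysosomes and synaptic vesicle precursors to kinesins, differed by -2.31, Klc1, a light chain of kinesin-1, by -2.25 and Trak1, its mitochondrial adaptor, by -2.24. Fez1, a kinesin-1 adaptor, was the one that was higher, by 1.75. It was also higher in Sox2 cells with than without Ccnb1, by 4.54. Its direction did not hold in the other comparisons, at -0.67 for Sox2 against Neurod6 cells and -3.09 between the classes without Ccnb1.

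Of 11 measured genes of the opposing motor dynein and its regulators, 2 were higher past the fold and 3 lower, beside the same 23.7% and 11.3%. Nde1, a dynein regulator at centrosome and kinetochore that cortical progenitors need, was expressed in 15 of 22 Ccnb1 cells and 0 of 12 neurons (difference 5.39). Dync1h1, the dynein heavy chain, was expressed in 11 of 22 against 9 of 12 cells (difference -2.31), and the cargo adaptor Bicd1 in 0 of 22 against 4 of 12 (difference -2.85). The light intermediate chains went in opposite directions, with Dync1li2 at 1.66 and Dync1li1 at -1.88.

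Within title sets, the count of mitotic kinesins higher past the fold in Ccnb1 cells against neurons was 9 in set 1 (12 against 8 cells), 8 in set 2 (2 against 2) and 6 in set 3 (8 against 2), with 0, 0 and 1 lower. Transport kinesins were lower in 5, 5 and 5 members and higher in 0, 2 and 2. The list median in sets 1, 2 and 3 was 2.24, 2.26 and 0.89 for mitotic kinesins. For transport kinesins it was -0.50, 0 and 0, beside 0.36, 0 and 0.01 over all genes. Of all genes, 30.7%, 31.1% and 22% were higher in the same sets and 11%, 17.1% and 25.6% lower. Kif3a kept its direction in every set, at -2.58, -3.44 and -4.58, and so did Kif20a at 4.09, 2.38 and 2.39 and Kif23 at 2.09, 1.56 and 4.09. Kif11 (3.27, 4.90 and -0.20) and Kif22 (5.11, 3.87 and -0.08) lost theirs in set 3, and Kif5c (-2.08, 0.52 and -5.25) lost its in set 2, where each class had 2 cells.

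Markers of division and of other cell types moved with some of these classes. The sum of the dividing markers Ccnb1, Mki67 and Top2a had a median of 1364 CPM in Ccnb1 cells, with a highest value of 4314. It was 1.04 CPM (highest 1432) in the neurons and 122 CPM (highest 1875) in Sox2 cells without Ccnb1. Classes without Ccnb1 thus included cells high in Mki67 or Top2a, and their part in the differences was not tested. Of the 6 genes listed for excitatory neurons, Tbr1 never reached 10 CPM in Sox2 cells or in Ccnb1 cells of the first comparison, nor did Neurod6, whose absence defines the latter. The sum of the other 5, Tbr1 included, reached 5998 CPM in Sox2 cells and 4367 CPM in Ccnb1 cells, against 3368 to 16200 CPM in the neurons. As given above, the list was also high in the cells with Dlx5 alone, so a high sum does not identify an excitatory neuron. The sum of 6 interneuron markers reached 2761 CPM in Ccnb1 and in Sox2 cells and 3.84 CPM in the neurons, and that of 5 Cajal-Retzius markers reached 327 CPM in Ccnb1 and in Sox2 cells and 7205 CPM in the neurons. The part of these cells in the differences was not tested. The summed level of 4 erythroid genes had a median of 176 CPM in Ccnb1 cells (range 0 to 1484), 36.7 CPM in neurons (0 to 1090), 462 CPM in Sox2 cells (0 to 5613) and 797 CPM in Sox2 cells without Ccnb1 (0.29 to 5613), and its part in the differences was not tested. The sum of 5 mural and meningeal genes reached 6847 CPM in 1 Ccnb1 cell and had a median of 0 in every class compared. Of the microglial markers, 3 were measured, and the sum had a median of at most 1.12 CPM in these classes. Its highest value was 93.7 CPM, among the Sox2 cells without Ccnb1. Endothelial markers were not analysed here.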

How the data were processed

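The authors deposited raw read counts per gene and cell, and the submitters' processing notes name TopHat2, HTSeq and mm9 without versions. Strand and the counting annotation are not stated there. Counts were divided by each cell's total to give CPM and taken as log2(CPM + 1). Every gene of the table was compared between marker classes by the difference of mean log2(CPM + 1), and a difference of 1 or more in size was called past the fold. The members, lists, partner genes and comparisons were chosen with earlier results of these data known. Values were printed for the 8 mitotic or transport members with the largest differences past the fold, for other members past it, and for the 3 with the highest mean per list. Exon lengths came from GENCODE vM21 by symbol (34 of 34 members) and promoter windows from RefSeq (GRCm38.p6). Alternatives used scran 1.30.0 size factors, other thresholds, thinning and left-out cells. The calculation was tested on simulated data. Python 3.11.15, pandas 2.3.3 and R 4.3.3 were used. No doublet caller was run.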

Additional observations from a re-analysis of the deposited data

How the results depend on the processing

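Of 645 values of the 51 member differences past the fold under other settings, 575 stayed past it, 68 fell under it without taking the opposite sign and 2 turned. Some of the 68 fell to 0, as for Kif14 in Ccnb1 cells against neurons and Kif23 in Sox2 against Neurod6 cells. The 2 that turned were Kif2a, to 0.27 for Sox2 cells without Ccnb1 against neurons when title set 1 was left out, and Kif21a. The latter went to 0.0378 for Sox2 against neuronal cells when neurons were named by Dcx. With class medians in place of means, Ccnb1 cells against neurons had 4 mitotic members higher, 2 transport members lower and a mitotic list median of 0.0542. For Sox2 against Neurod6 cells medians left 2 mitotic members higher and gave 1 transport member higher. For progenitors with against without Ccnb1 they gave 1 mitotic and 2 transport members lower and a mitotic median of 0.0221, and between the classes without Ccnb1 they gave 1 mitotic and 1 transport member higher. A pseudocount of 10 left 2 mitotic members higher for Sox2 against Neurod6 cells, 1 between the classes without Ccnb1, and 1 transport member higher in progenitors with Ccnb1. At 50 CPM in place of 10, 16.7% of Ccnb1 cells and 5.56% of Sox2 cells held 6 or more mitotic kinesins.

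Transport members in progenitors with against without Ccnb1 came to 1 higher at 20 CPM, at 50 CPM, with scran size factors and among genes of mean CPM 5 or more, and to 1 lower with scran and without title set 3. They came to 2 lower after thinning to 1000000 reads and without the cells under 1000000 reads, and both of these gave 1 transport member higher between the classes without Ccnb1. Without title set 1, Ccnb1 cells against neurons had 1 mitotic and 7 transport members lower and 1 transport member higher. There Sox2 against Neurod6 cells, and the classes without Ccnb1, each had 1 mitotic member lower and 1 transport member higher, and progenitors with Ccnb1 had 4 transport members higher and 2 lower. Without title set 3 the classes without Ccnb1 had 5 mitotic members higher. The cause was not tested.

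Leaving out each cell in turn, added after seeing the data, gave transport members higher in 0 to 1 for Sox2 against Neurod6 cells, 1 to 4 higher and 0 to 2 lower in progenitors with Ccnb1, and 3 to 5 mitotic and 0 to 1 transport members higher between the classes without Ccnb1. Scran moved the median of all genes by at most 0.02 in size and turned no member past the fold. The classes are small and unequally deep, and values around 10 CPM rest on few reads in the shallowest cells. In the cell with 85338 reads, a Sox2 cell without Ccnb1, 1 read was already above 10 CPM. Its expressed genes can thus rest on 1 read, and any value under 10 CPM was 0. No paired analysis was possible because all cells form 1 group.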
